A study of Mus musculus with 3 samples.

Results

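The genes described here encode cadherins, protocadherins, and the parts of the desmosome, with the alpha and delta catenins that bind cadherin tails. They were chosen by gene symbol alone, as every row of the array table named *Cdh*, *Pcdh*, *Dsg*, *Dsc*, *Pkp*, *Ctnna*, or *Ctnnd* with its number or letter, plus *Jup* and *Dsp*. This gave 112 genes of the 30854 symbols on the table, of which 110 carry a current symbol. The other 2, *Pcdh21* and *Pcdh24*, are older names of *Cdhr1* and *Cdhr2*. The samples were embryonic regions of wild-type mouse embryos of the Cd-1 strain, untreated, at the early headfold (EHF) stage, cut from the extraembryonic part and profiled on 3 Illumina arrays. These arrays, replicates 1, 2, and 3, form a single group, so the comparisons possible are with the background of each array and between the arrays. The labels do not say whether the replicates came from separate embryos or pools, and the spread between them may be technical.

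Classical cadherins hold cells together by binding the same cadherin on a neighboring cell, and their tails are tied to actin through beta catenin or plakoglobin and alpha catenin, while delta catenins steady them at the membrane. Desmosomes are built from desmogleins and desmocollins and are joined to keratin filaments by plakoglobin, plakophilins, and desmoplakin. Protocadherins are a larger family, of which the alpha, beta, and gamma groups lie in gene clusters and are known above all from neurons. Gastrulation is the textbook case of cadherin exchange, because the epiblast is an epithelium that holds E-cadherin (*Cdh1*), and cells leaving through the primitive streak lose it and gain N-cadherin (*Cdh2*).

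Few of these genes were detected. For a gene with 1 probe, the detection p-value is the share of an array's negative-control probes that were as bright or brighter. For a gene with several probes it is a combined value and not such a share. A gene counted as called if this value, single or combined, stayed below 0.01 on each of the 3 arrays. This held for 7 of the 112 genes, 6.25%, whereas 20.6% of all symbols were called by the same rule. The 7 were *Ctnna1*, *Ctnnal1*, *Cdh6*, *Pcdh7*, *Pcdhgb4*, *Dsg2*, and *Pkp2*. Another 4 were called on 2 arrays, 6 on 1 array, and 95 on none. These are 3.57%, 5.36%, and 84.8% of the genes, beside 4.99%, 7.37%, and 67% of all symbols. On single arrays, 14, 8, and 13 of the genes were called on replicates 1, 2, and 3, which is 12.5%, 7.14%, and 11.6% of them, beside 29.2%, 26.6%, and 23.3% of all symbols. The median over the 112 genes of the mean log2 signal was 6.48, and over all symbols it was 6.49. The 95 genes with no call had mean log2 signals with a median of 6.46.

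**Figure D1:**
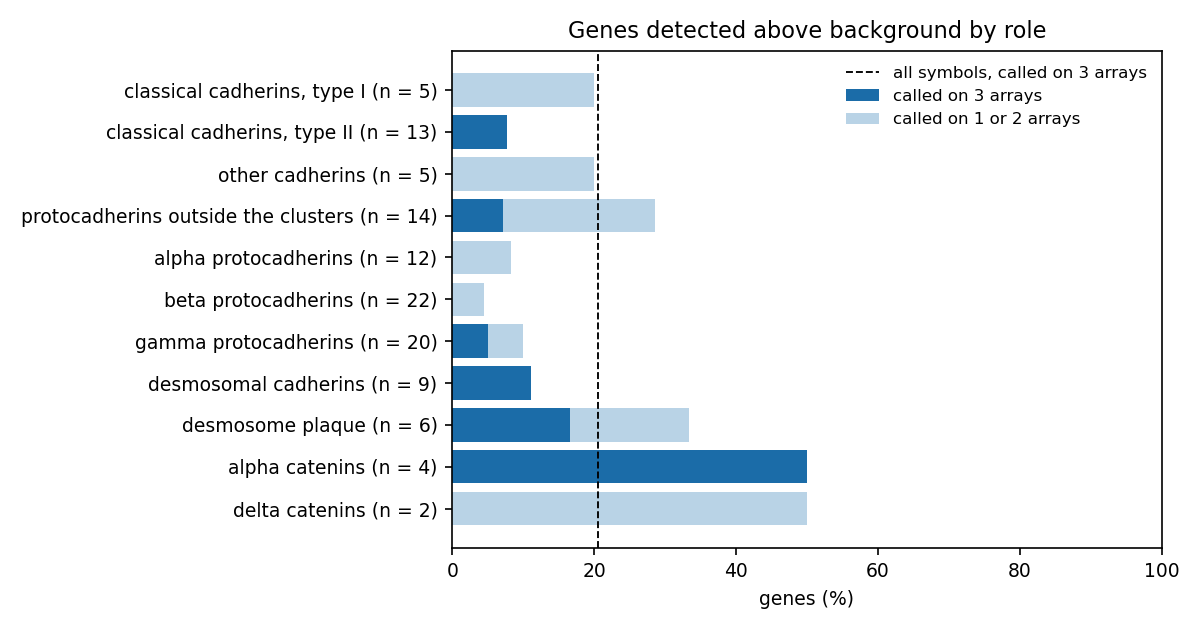
Share of the genes of each role, in percent, with a detection p under 0.01 on all 3 arrays (dark bars) or on 1 or 2 arrays (pale bars). The dashed line marks the 20.6% of all symbols that were called on 3 arrays. The dark bar of alpha catenins, with 2 of 4 genes called, lies beyond the line, and the dark bars of the other 10 groups do not reach it.

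Among the 11 roles, alpha catenins had the largest share of genes called on all 3 arrays, 2 of 4 or 50%, beside 20.6% of all symbols. Neither delta catenin was called on all 3. *Ctnna1*, the widely expressed alpha catenin that links the cadherin complex to actin, gave 11.91, 11.73, and 11.03 on replicates 1, 2, and 3 as its log2 signals, with a detection p of 0 on each. The background level, taken as the lowest signal that a symbol with 1 probe could have and still be called, was 6.69, 6.66, and 6.58 on these arrays. After background correction and quantile normalization *Ctnna1* stood 6.70 ± 0.33 log2 units (SD, n = 3) above that level, so that its distance from background exceeded the spread between arrays. Each such SD also holds the shift of the background level, which after normalization was 4.69, 4.82, and 5.08 on replicates 1, 2, and 3. The normalized levels of *Ctnna1* itself were 11.65, 11.63, and 11.41. Its distance from background was 4.92 with quantile normalization alone and 7.25 against the median of undetected symbols. *Ctnnal1* (alpha-catulin), a relative of alpha catenin, had signals of 9.35, 9.18, and 8.53, and a normalized level 3.97 ± 0.33 above background, or 2.37 with quantile normalization alone. All 3 arrays thus lay clear of background for both of these rows. A row under *Catnal1*, an older name of *Ctnnal1*, had signals of 6.48, 6.45, and 6.36 and no call. The other 2 alpha catenins were called on no array.

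The delta catenins were less clear. *Ctnnd1*, which encodes p120 catenin, had signals of 6.44, 6.47, and 6.29, each below the background level of its array, and was called on none. The table also holds a row under *Catns*, which the RefSeq gene table gives as an older name of *Ctnnd1*, with signals of 7.33, 7.09, and 6.78 and detection p-values of 0.000276, 0.00452, and 0.0736. That row lay above the background level on every array and was called on replicates 1 and 2, so the 2 rows of the same gene disagreed. *Ctnnd2*, a delta catenin of neurons, was called on replicate 1 only, with a detection p of 0.00862 and signals of 6.58, 6.54, and 6.37 that lay below the background level.

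Of the 18 classical cadherins, *Cdh6* alone was called on all 3 arrays, which is 5.56%, beside 20.6% of all symbols. *Cdh6*, a type II cadherin, is known from early kidney and neural tissue. Its signals were 6.89, 6.84, and 6.59, with detection p-values of 0.00107, 0.00107, and 0.00855. The distance to the background level was 0.20 and 0.19 on replicates 1 and 2 and 0.01 on replicate 3, so on the last array it sat at the limit of detection. *Cdh5* (VE-cadherin), the endothelial cadherin, had signals of 6.51, 6.55, and 6.40 and no call. *Cdh11*, a cadherin of mesenchyme, had 6.51, 6.48, and 6.42 and no call. Of the 5 cadherins of other kinds, *Cdh13*, which has no cytoplasmic tail, was called on replicates 2 and 3, with signals of 6.70, 6.62, and 6.49. On the arrays where it was called, its signal lay below the background level. It was above that level on replicate 1 only, where its detection p was 0.0245. The remaining 4 had no call.

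*Cdh1*, singled out after its values were seen, had no call, but its signal was far from background. Its log2 signals were 8.55, 8.20, and 7.78, which is 1.87, 1.55, and 1.20 above the background level of replicates 1, 2, and 3. Its detection p-values were nevertheless 0.113, 0.0377, and 0.273. The bead numbers show at least 2 probes for *Cdh1*, and the table gives 1 averaged signal and 1 combined detection p for them. The combined values lay on the steps given by a sum of 2 probe p-values, with sums of 0.474, 0.275, and 0.738. An average above the background level requires that at least 1 probe is above it. With such a probe contributing under 0.01, the other would have had a detection p of at least 0.464, 0.265, and 0.728, which is within the background. On all 3 arrays, therefore, 1 *Cdh1* probe gave a signal and the other did not, if the number of probes is 2. The positions of the probes in the transcript are not part of the table.

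**Figure D2:**
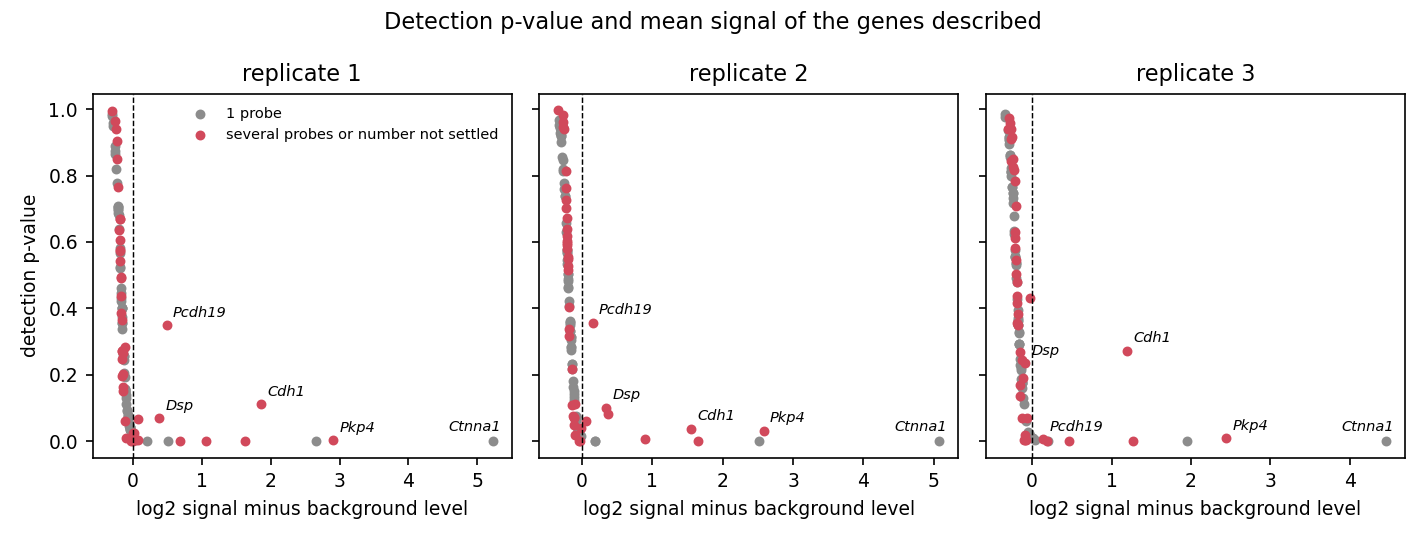
Detection p-value against the log2 signal minus the background level of the array (dashed line) for each of the 112 genes, with 1 panel for each replicate. Genes with 1 probe fall on a single steep curve, whereas *Cdh1* lies 1.87, 1.55, and 1.20 above background with detection p-values of 0.113, 0.0377, and 0.273.

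*Cdh2* was called on replicate 1 only. Its signals were 6.68, 6.56, and 6.47, with detection p-values of 0.000416, 0.0191, and 0.191, and none of the signals exceeded the background level. *Cdh3* (P-cadherin) had signals of 6.69, 6.64, and 6.49 and detection p-values of 0.0248, 0.0408, and 0.0203, and it was called only when the threshold was 0.05. *Cdh4* (R-cadherin), also named after its values were seen, was not called, with signals of 6.57, 6.54, and 6.54. A row under *AW120700*, listed by RefSeq as an older name of *Cdh4*, was called on each array with signals of 7.38, 7.19, and 6.97. Signals of different probes depend on how well each hybridizes, and the level of 1 cadherin was therefore not set against that of another.

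To count genes such as *Cdh1*, the averaged signal itself was compared with the background level, and a gene was counted if it was higher on all 3 arrays. This rule was chosen after the data had been seen. It was met by 10 of the 112 genes, 8.93%, and by 26.3% of all symbols. It added *Cdh1*, *Pcdh1*, *Pcdh19*, and *Pkp4* to the called genes and left out *Pcdh7*. Of the 42 genes that have several probes or no settled probe number, 3 were called, 7.14%, and 6 had a mean signal above background, 14.3%, beside 20.1% and 39.8% of all such symbols. Of the 70 genes with 1 probe, 4 were called, 5.71%, beside 20.8% of all symbols with 1 probe.

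**Figure D3:**
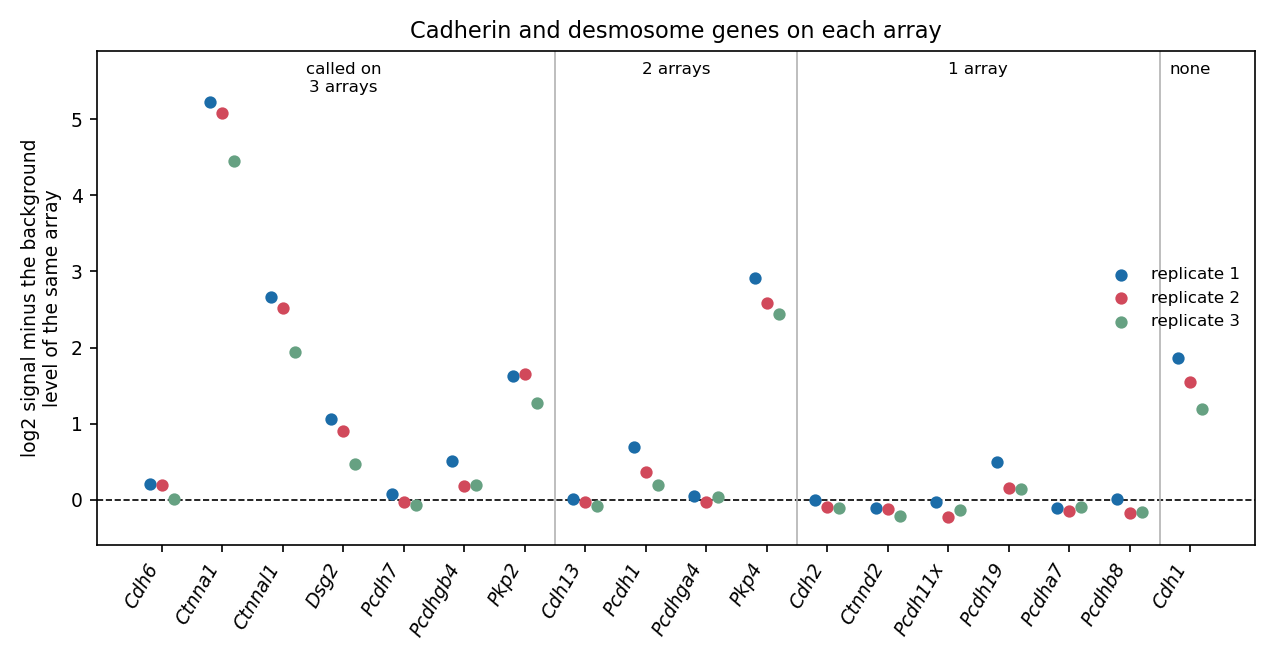
Log2 signal minus the background level of the same array for the 18 genes called on at least 1 array or lying above the background level on all 3 (each point is 1 array, and the dashed line is the background level). *Ctnna1*, *Ctnnal1*, *Dsg2*, and *Pkp2* were called on 3 arrays and lay well above the line, *Cdh6* and *Pcdh7* lay close to it, and *Cdh1* and *Pkp4* lay above it without a call on every array.

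Clustered protocadherins were nearly all at background. The alpha, beta, and gamma clusters were represented by 12, 22, and 20 genes. Of these 54, 1 was called on all 3 arrays, 1.85%, beside 20.6% of all symbols. This gene was *Pcdhgb4*. Its signals were 7.20, 6.84, and 6.77, each above the background level, and its normalized level was 0.81 ± 0.34 above it. That level was 0.28 with quantile normalization alone, 0.30 with centred signals, and 1.36 against the median of undetected symbols. *Pcdhga4* was called on replicates 1 and 3, with signals of 6.74, 6.63, and 6.62. *Pcdhb8* was called on replicate 1 and *Pcdha7* on replicate 3, each with a signal near or below the background level. The other 50, 92.6%, had no call, beside 67% of all symbols, and their mean signals lay between 6.35 and 6.68. Transcripts of the alpha cluster share their last exons, as do those of the gamma cluster, so a probe placed in those exons would read the whole cluster, and which genes have such probes cannot be read from the table.

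Of the 14 protocadherins outside the clusters, 1 was called on all 3 arrays, 7.14%, beside 20.6% of all symbols. *Pcdh7* had detection p-values of 0.00508, 0.00229, and 0.00432, but its signals of 6.76, 6.63, and 6.51 were above the background level on replicate 1 only, and its call rests on the combined p of at least 2 probes. *Pcdh1* (axial protocadherin) was called on replicates 1 and 3 with signals of 7.37, 7.02, and 6.77, all above background. Its detection p of 0.0833 on replicate 2 again lay on the steps of a 2-probe sum, of 0.408. *Pcdh19*, an X-linked gene known from neural tissue, lay 0.49, 0.15, and 0.14 above the background level of replicates 1, 2, and 3 on the log2 scale, and was called on replicate 3 only, with detection p-values of 0.349, 0.357, and 0.00594. For *Pcdh1* and *Pcdh19*, the signals were thus above background on every array while the calls varied. *Pcdh11x* was called on replicate 1 alone, with signals of 6.66, 6.43, and 6.45, each below the background level. *Pcdh8*, known as paraxial protocadherin and a marker of nascent mesoderm, was also named after its values were seen and was called on no array, with signals of 6.54, 6.45, and 6.45.

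Of the 9 desmosomal cadherins, *Dsg2* was the one called, which is 11.1%, beside 20.6% of all symbols. *Dsg2* is the desmoglein of simple epithelia. Its signals were 7.75, 7.55, and 7.04, with detection p-values of 0.00059, 0.00671, and 0.000675, and its normalized level was 1.83 ± 0.43 (SD, n = 3) above background. The SD covers the arrays and not the choice of scale, since the level of *Dsg2* was 0.79 with quantile normalization alone and 0.81 with centred signals. The 3 desmocollins had no call, and *Dsc2*, usually found with *Dsg2*, had signals of 6.49, 6.41, and 6.29, below background on each array. The remaining desmogleins, which belong to stratified epithelia and hair, were not called either.

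In the desmosome plaque, *Pkp2*, the plakophilin of simple epithelia and heart, had signals of 8.32, 8.31, and 7.85 and a detection p under 0.01 on each array, and its normalized level was 2.91 ± 0.19 above background, or 1.51 with quantile normalization alone. A row under *1200012P04Rik*, an older name of *Pkp2*, was called on replicate 1 only. *Pkp4* (p0071), found at desmosomes and adherens junctions, had signals of 9.60, 9.24, and 9.02. Its detection p was 0.00271 and 0.00879 on replicates 1 and 3 but 0.0323 on replicate 2, and its probe number was not settled. *Dsp* (desmoplakin) differed from the background level by 0.38 and 0.35 on replicates 1 and 2 and by -0.09 on replicate 3, so it was above background on the first 2 arrays and below it on the last, with detection p-values of 0.0703, 0.101, and 0.236 from at least 3 probes. *Jup* (plakoglobin), measured by 1 probe, was below background throughout, with signals of 6.61, 6.36, and 6.28, and the other 2 plakophilins were not called. By their mean signals, the plaque genes above background on all 3 arrays were thus *Pkp2* and *Pkp4*.

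Genes that work with these families were examined as further lists, again beside the 20.6% of all symbols called. Of 16 adherens junction partners, 9 were called on all 3 arrays, among them *Ctnnb1* (beta catenin), with signals of 9.48, 9.37, and 8.27, and *Vcl* (vinculin), an actin linker, with 8.40, 8.33, and 7.85. *Epcam*, an epithelial adhesion molecule found on the table as *Tacstd1*, was not called, with signals of 6.51, 6.39, and 6.29. Of 10 regulators of epithelial-mesenchymal transition, 6 were called, among them *Snai2*, *Zeb1*, and *Twist1*, which are known as repressors of E-cadherin or inducers of the transition. The count was 7 if rows under older names were included. *Zeb2* had no call, whereas a row under its older name *Zfhx1b* was called on each array. For *Zeb1* the reverse held, with no call for the older name *Zfhx1a*. *Snai1*, needed for loss of E-cadherin at the streak, had signals of 6.93, 6.89, and 6.69 and was called on replicates 1 and 2. Among 8 desmosome and filament partners the 4 called genes were the keratins *Krt7*, *Krt8*, *Krt18*, and *Krt19*, and the other 4 genes were not. *Krt8* had signals of 9.87, 9.66, and 8.81, and *Krt18* had 9.46, 9.07, and 8.41.

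Markers of the tissue were read in the same way. Of 10 genes of the embryonic region, 8 were called on all 3 arrays, including *Otx2* (signals of 9.70, 9.39, and 9.29) and *Mesp1* (7.50, 6.90, and 6.69). *Six3* was called on replicate 1 only and *Hesx1* on no array, and the signals of both lay below the background level throughout. Of 14 visceral endoderm markers, 13 were called, and of 10 markers of extraembryonic ectoderm, 5. In the latter list, *Elf5*, *Eomes*, *Ascl2*, and *Gcm1* were called on no array, and *Esrrb* on replicate 2 only. None of 8 endothelial markers was called on all arrays, 5 of them, *Pecam1* included, being called on none. *Tek* was called on replicates 1 and 2, *Kdr* on replicate 1, and *Flt1* on replicate 3, and *Flt1* exceeded the background level by 0.57, 0.60, and 0.18 on replicates 1, 2, and 3. None of 6 markers of trophoblast giant cells and decidua was called on any array. Visceral endoderm and its derivatives are epithelia with E-cadherin, desmosomes, and keratins, and because these arrays read whole tissue, the cell type in which *Dsg2*, *Pkp2*, or *Cdh1* was expressed cannot be told apart. Fewer expressing cells and less RNA per cell cannot be told apart either.

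Between the arrays, the called genes differed little after normalization. Their range over the 3 arrays had a median of 0.26 on the log2 scale, beside 0.33 over all 6357 called symbols, and ran from 0.17 for *Pcdh7* to 0.52 for *Pcdhgb4*. Replicate 3 was the lowest array for 5 of the 7 (*Pcdhgb4* and *Pkp2* were the exceptions), whereas it was the lowest for 34.0% of all called symbols. The median difference of replicate 3 from the mean of the other arrays was -0.19 for the called genes and 0.03 for all called symbols. For the called genes it was -0.066 with quantile normalization alone, and over all 112 genes it was -0.037. For *Dsg2* this difference was -0.41. *Dsp* had the widest range of the 112 genes, 1.14, with normalized levels of 5.62, 5.77, and 4.63 on replicates 1, 2, and 3.

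The partner and marker lists were read on the same arrays. *Krt8*, *Krt18*, and *Krt19* were low on replicate 3, where they differed from the average of replicates 1 and 2 by -0.48, -0.39, and -0.32 on the log2 scale. *Krt7*, close to background, was higher there by 0.65. The difference was -0.76 for the *Ctnnb1* row and -0.12 for *Catnb*, an older name of the same gene, but the 9 called adherens junction partners had a median difference of 0.03 on replicate 3, with 0.49 for *Ctnnbip1*. The 13 called visceral endoderm markers had median differences of -0.11, 0.55, and -0.24 on replicates 1, 2, and 3. The summed linear signal of all 14 markers, as deposited and so not normalized, was 15279, 16322, and 7836 on replicates 1, 2, and 3. These sums were lowest on replicate 3 in other lists too, with 3396, 3182, and 1995 for extraembryonic ectoderm, 3021, 2372, and 2134 for the embryonic region, and 5628, 5083, and 3845 for adherens junction partners. *Spink3*, a visceral endoderm marker, had log2 signals of 12.12, 11.91, and 10.33, and *Afp* was not called on replicate 3. The 5 called extraembryonic ectoderm markers had median differences of 0.10, 0.09, and -0.11 on replicates 1, 2, and 3. On replicate 3 the difference was -1.04 for *Rhox5* and -0.38 for *Ets2*. It was -0.11 for *Cdx2*, -0.08 for *Tcfap2c*, and 0.10 for *Bmp4*. The 8 called genes of the embryonic region had median differences of 0.15, -0.30, and 0.10. Among them the differences on replicate 1 were largest for *Mesp1*, *Mixl1*, and *Tbx6*, at 0.93, 0.89, and 0.55. The rest ran from 0.16 for *Fgf8* and 0.14 for *Hoxb1* to -0.43 for *Cyp26a1*. The part of visceral endoderm, extraembryonic ectoderm, or mesoderm in the differences of cadherin and desmosome genes was not tested.

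**Figure D4:**
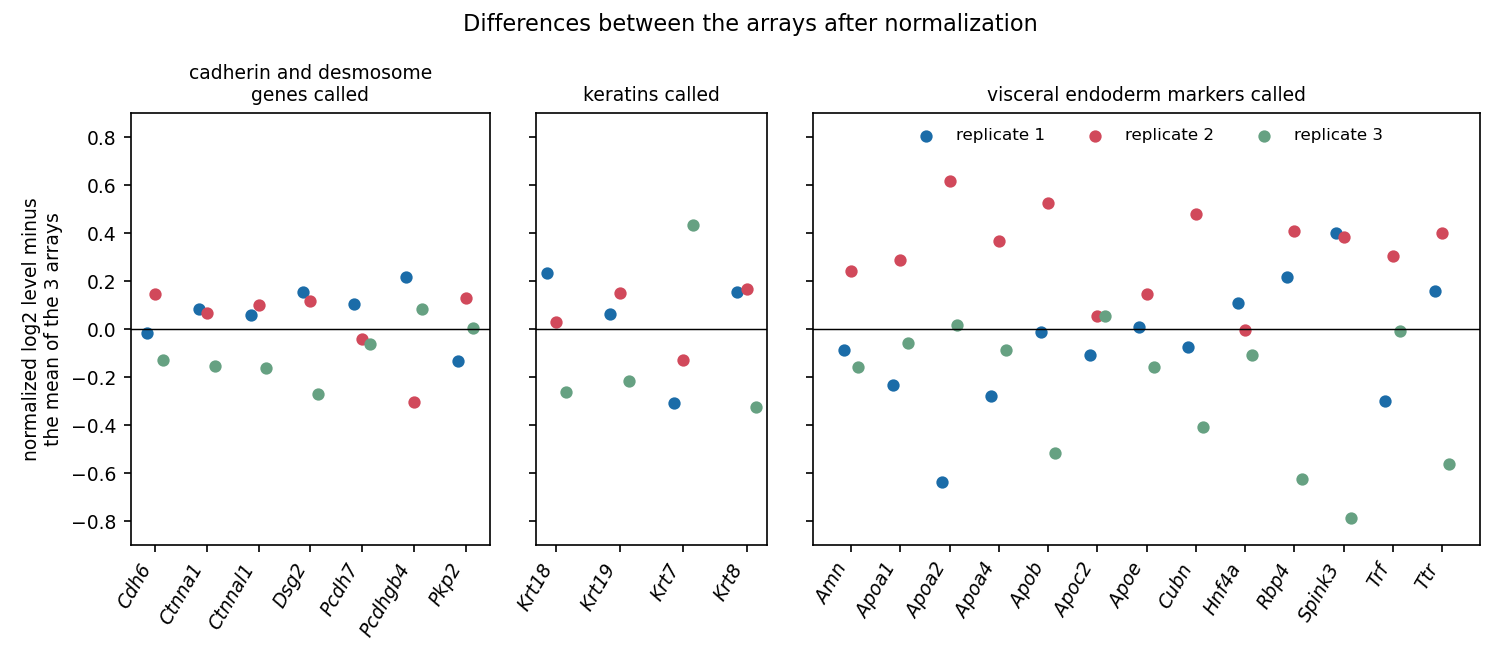
Normalized log2 level on each array minus the mean of the 3 arrays, for the 7 called cadherin and desmosome genes, the 4 called keratins, and the 13 called visceral endoderm markers (each point is 1 array). Replicate 3 was the lowest array for 5 of the 7 genes at left, and replicate 2 was high for most visceral endoderm markers, with a median difference of 0.55 from the other arrays.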

How the data were processed

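RNA of 3 samples of 1 group was measured on Illumina Mouse-6 arrays. The authors deposited log2 signals averaged per gene symbol and not normalized between arrays, mean bead numbers, their standard error (not used), and a detection p-value per the file headers. Partek was named for the analysis, and its settings are not given in the sources used here. The methods name wild-type ICR embryos and TRIzol, and the labels name Cd-1 and a column kit. Median bead numbers were 44, 43.5, and 43, and the number of arrays limits the precision.

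A symbol was taken to have 1 probe where its bead numbers were whole and its detection p lay on steps of 1 in 936 (tolerance 0.002 steps) on all arrays, as held for 21986 of 30854 symbols. The number of probes is otherwise a lower limit, the smallest that made the mean bead numbers whole. A combined p was read as a sum of probe p-values within 0.03 steps. Levels were obtained with the normexp model using detection p-values for the background estimate (1-probe symbols only), then adding 16 before quantile normalization. Calls used the detection p with no fit. A one-sided limma test against the background levels, with Benjamini-Hochberg adjustment over all symbols, was run as well. That fit takes a shift shared by all genes as its spread, so it was an alternative only.

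Every gene called on any array was named, and 10 genes were named whatever their values. A limit of 4 names was set for each other list. More were named from some lists, including embryonic region, extraembryonic ectoderm, and regulators of epithelial-mesenchymal transition. *Cdh1*, *Cdh4*, and *Pcdh8* were added after their values were seen. The members and lists were chosen with earlier results of these data known. List genes were matched by current symbol and otherwise by an older symbol unique in the RefSeq gene table of GRCm38.p6. No coordinates are given because no build is named for the arrays. Software was limma 3.58.1 in R 4.3.3, with pandas 2.3.3, numpy 2.4.6, scipy 1.17.1, and matplotlib 3.10.9 in Python 3.11.15.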

Additional observations from a re-analysis of the deposited data

How the results depend on the processing

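The count of 7 called genes became 12 with a detection p under 0.05, adding *Cdh3*, *Cdh13*, *Pcdh24*, *Pcdhga4*, and *Pkp4*, and 3 under 0.001, keeping *Ctnna1*, *Ctnnal1*, and *Pkp2*. It was 11 with at least 2 arrays, 17 with at least 1 array, 11 in the limma test, and 4 among symbols with 1 probe only, of which there are fewer. The limma test added *Cdh1*, *Pcdh1*, *Pcdh19*, *Dsp*, and *Pkp4* and lost *Pcdh7*. The count was 7 with adjusted detection p-values and 10 with a mean signal above the background level. It was also 10 with the cut-off of the study's legend, which accompanies levels described as normalized and was applied here to the mean of the deposited signals. These 10 were not the same genes, since the legend's cut-off lost *Cdh6* and added *Dsp*. Leaving out each array in turn gave 7 to 10, the 10 being without replicate 2, which added *Pcdh1*, *Pcdhga4*, and *Pkp4*. In each setting on all symbols the share of members was below the share of symbols.

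The median level of the 7 genes above background was 1.83 on the log2 scale. It was 0.79 with quantile normalization alone, 0.81 with signals centred on the array median, 1.12 with an offset of 50, and 2.39 against the median of undetected symbols, since these settings change the scale or the background level. Without a replicate it was 1.67 to 2.07. Over 49 values of single genes, 26 moved by less than the SD between arrays, 21 moved by more, and 2 changed sign, both for *Pcdh7*, which became 0.48 against the median of undetected symbols and 0.059 without replicate 3.

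The median difference of replicate 2 from the other arrays, 0.15, became -0.031 over all 112 genes and -0.017 without replicate 3, and was 0.22 without replicate 1. The cause was not tested. The median differences of replicates 1 and 3 kept their sign but not their size. That of replicate 3, -0.19, was -0.066 with quantile normalization alone, -0.10 with an offset of 50, -0.34 with centred signals, -0.037 over all 112 genes, and -0.22 to -0.17 without a replicate. That of replicate 1, 0.13, ran from 0.012 over all 112 genes to 0.29 with centred signals, and was 0.017 to 0.17 without a replicate. No paired analysis was possible because all arrays belong to the same group. Brightness over background limits the calls, and a gene with no call was not shown to be absent.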

Other observations

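Large and atypical cadherins were also read, as a list of 16 genes that includes *Pcdh21* and *Pcdh24*, already counted above. None of the 16 was called on all 3 arrays, beside 20.6% of all symbols. The 3 called on 2 arrays were *Fat1*, *Clstn1*, and *Clstn3*. *Fat1*, a giant cadherin of epithelial cells, exceeded the background level by log2 differences of 1.87, 1.34, and 1.07, with detection p-values of 0.0104, 9.99e-07, and 0.00666. *Celsr3*, a planar polarity cadherin, had signals of 7.60, 7.14, and 7.19 with no call. By mean signal, 4 of the 16 exceeded background on all arrays, a share close to the 26.3% of all symbols. Of 7 proteases that process cadherins or their precursors, none was called on all arrays, beside 20.6% of all symbols. *Furin* had signals of 8.62, 8.43, and 8.12 with a call on replicate 1.

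The table holds 9 rows under older names of the genes described, and 1 of them, *AW120700* (*Cdh4*), was called on all 3 arrays. *1200012P04Rik* (*Pkp2*), measured by 1 probe, was called on replicate 1 only, with signals of 6.82, 6.65, and 6.48, where the *Pkp2* row had 8.32, 8.31, and 7.85. *Catnal1* (*Ctnnal1*) had signals of 6.48, 6.45, and 6.36 and no call, where the *Ctnnal1* row was called on every array. For *Cdh10*, *Cdh18*, *Cdh24*, *Ctnna2*, and *Pcdh8*, neither the older row nor the row of the current symbol was called on any array. For the other genes the rows thus disagreed, and which transcripts their probes read was not tested.

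Over the whole table, 3533 symbols with several probes or no settled number exceeded the background level in mean signal on all 3 arrays, and 52.2% of these lacked a call on all 3 arrays. Of the genes described here, this held for 4 of 6, *Cdh1*, *Pcdh1*, *Pcdh19*, and *Pkp4*.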
